A study of Mus musculus with 6 samples.

Results

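The genes of the translation initiation factors were followed in mature dendritic cells of mouse in which new transcription had been stopped. They are the 50 genes whose symbols run from Eif1 to Eif6 with their suffixes, without the eIF2 kinases (Eif2ak genes) and without the Y-linked Eif2s3y, out of 23836 genes with a usable name. A mean of at least 1 RPKM (reads per kilobase of transcript, scaled to library size) over the 6 libraries was reached by 49 of them and by 10531 genes in all. The remaining member, Eif4e1b, an oocyte-type relative of the cap-binding protein, was listed at 0 RPKM in all 6 libraries. Eif3j1 reached the limit only through 1 library, WT at 3 h.

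The cells were grown from bone marrow of 6 week old C57BL/6 mice with GM-CSF at 10 ng/ml and with IL-4 at 1 ng/ml, selected with CD11c beads and matured over 24 h in LPS, the cell wall lipid of Gram-negative bacteria, at 100 ng/ml. The KO cells came from Mettl3 fl/fl CD11c-Cre mice (labelled Mettl3-/-), in which exons 2 to 4 of Mettl3, the methyltransferase that writes m6A on mRNA, are removed in cells that express CD11c, and the WT cells came from littermates. By the labels, the cells were divided over actinomycin D, which blocks transcription, for 0, 3 and 6 h. The methods name more than 1 pair of littermates, and from which of them the libraries analysed here came is unknown. All KO titles carry the mark D2 and all WT titles the mark D3, which the labels do not explain. What this mark stands for cannot be told apart from genotype, and whether these KO and WT libraries came from the same pair is not given. Each genotype and time was thus 1 poly(A) RNA library, the 3 times of a genotype are not replicates, and no p-value or replicate error can be given for any difference.

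Initiation factors bring the initiator tRNA, the small ribosomal subunit and the capped mRNA together. eIF2 carries the initiator tRNA and is recharged with GTP by eIF2B, eIF1 and eIF1A open the small subunit for scanning, and eIF3 is the large scaffold on that subunit. eIF4E binds the cap, eIF4G links it to eIF3 and eIF4A unwinds the leader, while the eIF4E-binding proteins hold eIF4E back until mTOR phosphorylates them. In dendritic cells this machinery is known to be controlled after LPS through mTOR and through phosphorylation of eIF2.

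The libraries held about 1.83e+07 to 2.25e+07 reads each, as estimated from the size of single-read steps in the RPKM values. Counting error, which leaves out differences between cultures, had a median standard error of 0.05 on the log2 scale for a KO to WT ratio of a member. It was at most 0.34 outside Eif3j1 and Eif3j2, for Eif2b3 with as few as 31.7 reads. All 10 dendritic cell markers on a fixed list passed the filter, with a summed level of 5493 to 7253 RPKM in KO and 6386 to 8445 in WT. The macrophage list summed to 985 to 1284 RPKM in KO and 1124 to 1470 in WT (8 of 9 genes past the filter, C1qa higher in KO). Neutrophil markers (7 of 9) summed to 2451 to 10258 RPKM in KO and 2590 to 4200 in WT, the highest sums being those at 0 h. Their median log2 ratio of KO to WT, relative to the median gene, was 1.67, 1.14 and 0.08 at 0, 3 and 6 h. The list was thus higher in KO at 0 and 3 h. At all 3 times Ltf and Ngp were counted as higher and Mmp8 as lower in KO. The other lists were low. T cell markers (3 of 3) summed to 5.17 to 6.39 RPKM in KO and 3.58 to 6.28 in WT, and B cell markers (0 of 4) stayed at or under 1.98 in KO and 1.11 in WT. Mast cell and basophil markers (4 of 4) summed to 14.4 to 45.4 RPKM in KO and 15.5 to 52.7 in WT, and erythroid markers (3 past the filter) to 0.853 to 3.94 in KO and 1.55 to 10.7 in WT. Fewer cells of a type and less RNA per cell cannot be told apart in such libraries, and the part of these cells in the values of the initiation factors was not tested.

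At 0 h the 50 genes made up 0.571% of the summed RPKM in KO and 0.622% in WT. Their mean levels over the 6 libraries ran over 2 orders of magnitude, from 1.81 RPKM for Eif3j1, 2.44 for Eif2b3 and 3.18 for Eif5a2 to 321 for Eif5a, 370 for Eif3f and 629 for Eif1. These last 3 genes carried 30.9%, 41.6% and 46.1% of the members' summed RPKM at 0, 3 and 6 h in KO, and 29.5%, 40.5% and 45.7% in WT. The mix of initiation factor mRNAs thus narrowed in both cultures toward a few stable transcripts as decay went on.

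Decay was measured on amounts scaled by ERCC spike-ins, synthetic RNAs added in proportion to total RNA. A decay rate k to 3 h and to 6 h was the loss of log2 amount per hour, and the half-life was the inverse of the mean of both rates. By this measure the median member had 15.2% left at 3 h and 17.4% at 6 h in KO, against 23.1% and 8.30% in WT. Over all genes past the filter the medians were 12.7% and 15.1% in KO, against 19.1% and 8.80% in WT. The amount left was thus larger at 6 h than at 3 h in KO for the median gene, so the length of a half-life rests on 1 spike-in factor for each library, whereas the order of genes within a culture does not. The median half-life of the members was 1.5 h in KO and 1.53 h in WT, beside 1.38 h in KO and 1.45 h in WT for all genes. Of the members, 31 of 49 in KO and 27 of 49 in WT lay above the median gene.

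**Figure D1:**
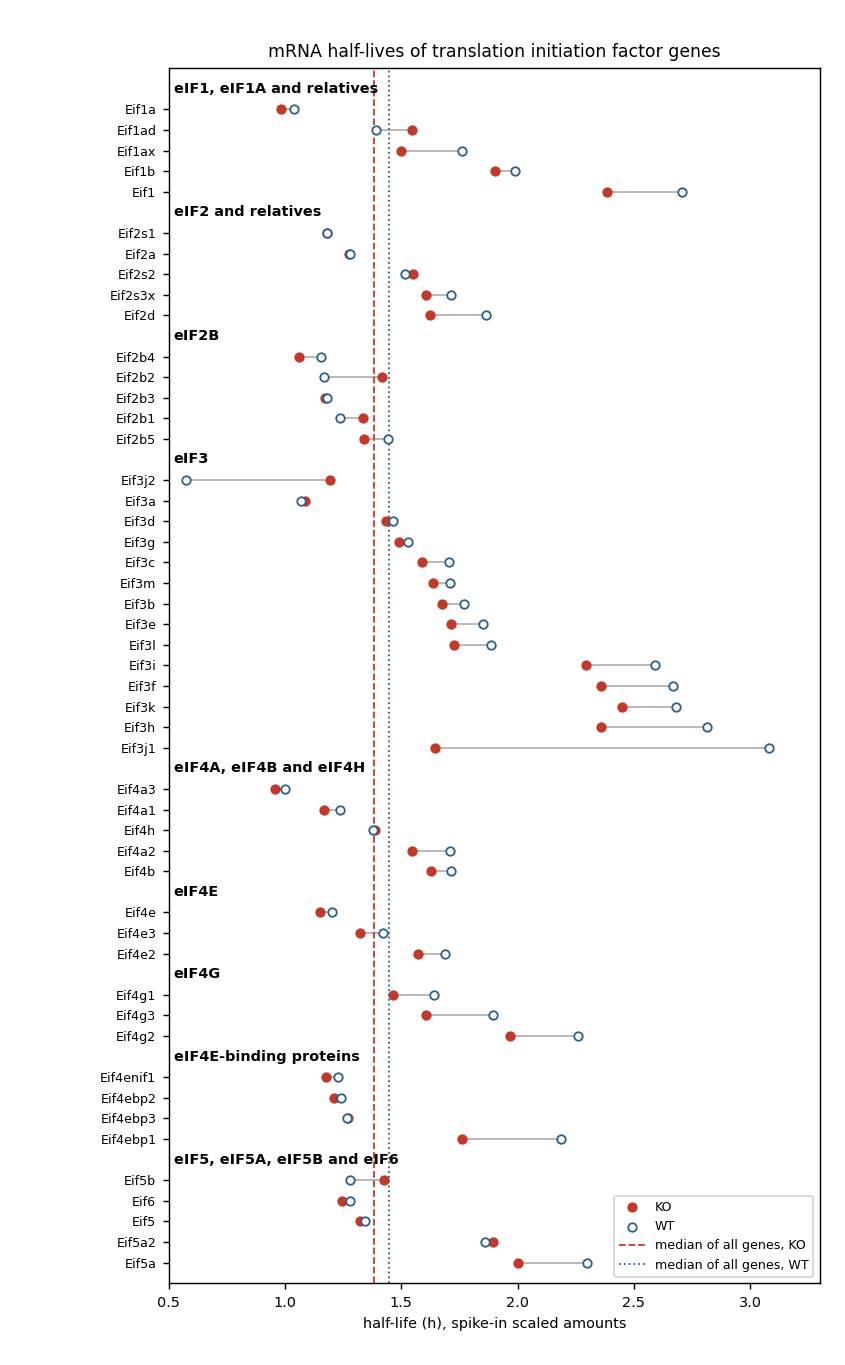
Half-life in hours (spike-in scaled amounts) of the 49 initiation factor genes past the filter, by role, with KO as filled and WT as open points and 1 culture a point; the lines mark the median of all genes, 1.38 h in KO and 1.45 h in WT. Eif1, Eif3f, Eif3h, Eif3i and Eif3k lie above 2.2 h in both cultures, and Eif3j1 and Eif3j2, whose reads can be split between near-identical copies, have their points far apart.

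Without Eif3j1 and Eif3j2, half-lives ran over 0.954 to 2.45 h in KO and 0.999 to 2.82 h in WT. The order of these 47 genes was nearly the same in the cultures (Spearman rho 0.96, Pearson r 0.97), as was that of all genes (rho 0.94). No library enters both half-lives, but genes are not independent replicates, so no p-value goes with these correlations. Half-life in WT and RPKM at 0 h in KO went together among the 47 (rho 0.48) more than over all genes (rho 0.10), and transcript length did not order them (rho -0.11 with half-life in WT). The longest 10% of all half-lives in KO and the longest 10% in WT were taken next. In KO they held 5 of 49 members (10.2%), Eif1, Eif3f, Eif3h, Eif3i and Eif3k, and in WT these plus Eif3j1 (6 of 49, 12.2%). Eif3j1 passed the filter only through the WT library at 3 h, on which its long WT half-life also rests. It is therefore not read as a long-lived member. The share of members was near the background, so long half-lives were not particular to the family.

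The subunits of eIF3 covered almost this whole range although their proteins join 1 complex. Their median half-life was 1.66 h in KO and 1.81 h in WT over 14 genes. Eif3h, an MPN-domain subunit, had 199, 219 and 263 RPKM in KO at 0, 3 and 6 h, against 190, 219 and 298 in WT. Its half-life of 2.36 h in KO and 2.82 h in WT made it the most stable mRNA of the family in WT outside Eif3j1. Its MPN partner Eif3f had 330, 361 and 443 RPKM in KO, against 298, 316 and 472 in WT. Of the starting amount of Eif3f, 26.5% was left at 3 h and 41.9% at 6 h in KO, against 38.0% and 30.7% in WT. Like Eif3f, the median gene had more left at 6 h than at 3 h in KO. The half-life of Eif3f was 2.36 h in KO and 2.67 h in WT. Eif3k and Eif3i stood beside them, with half-lives of 2.45 and 2.29 h in KO, against 2.68 and 2.59 h in WT. In RPKM, a share of the remaining mRNA, Eif1 and these 4 eIF3 genes were the only ones of the 47 that were higher at 6 h than at 0 h, in both KO and WT, as were 13.1% of all genes in KO and 12.2% in WT.

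Eif3a, the largest subunit and the scaffold for the others, was at the other end. It had 56.3, 18.2 and 13.5 RPKM in KO, against 60.1, 17.6 and 11.7 in WT, so that KO lay below WT at 0 h and above it at 3 and 6 h. Its half-life was 1.08 h in KO and 1.07 h in WT, in the lowest 15.4% of all genes in KO and 11.9% in WT. The remaining subunits lay between, from Eif3d (1.44 h in KO, 1.47 h in WT) and Eif3g (1.49 h in KO, 1.53 h in WT) over Eif3c, Eif3m and Eif3b to Eif3e (1.72 h in KO, 1.85 h in WT) and Eif3l (1.73 h in KO, 1.88 h in WT). Because of this spread the balance of the subunit mRNAs drifted. Eif3f stood 5.85, 19.8 and 32.9-fold above Eif3a at 0, 3 and 6 h in KO (RPKM, per length), and 4.96, 18 and 40.5-fold above it in WT. The SD of log2 RPKM over the 12 subunits other than Eif3j1 and Eif3j2 was 0.84, 1.23 and 1.43 in KO at these times, and 0.78, 1.2 and 1.53 in WT. Annotated exons of Eif3d share 2151 bases with Gm17638 on the other strand, reads of which may be included.

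**Figure D2:**
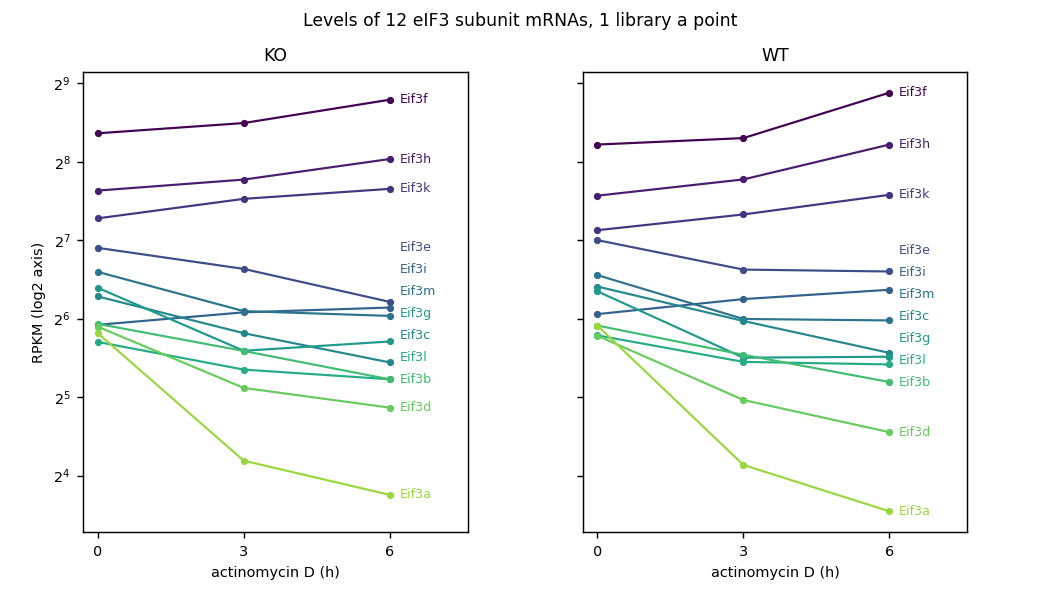
RPKM of 12 eIF3 subunit mRNAs (log2 axis) against hours of actinomycin D, KO in the left panel and WT in the right, 1 library a point. The lines fan out alike in both panels, from an SD of 0.84 to 1.43 on the log2 scale in KO and 0.78 to 1.53 in WT, with Eif3f on top and Eif3a at the bottom at 6 h.

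Many mRNAs of the translation machinery start with a 5′ terminal oligopyrimidine tract, a C followed by pyrimidines, through which mTOR and LARP1 are known to act on them, and human eIF3e, eIF3f and eIF3h mRNAs are counted among these. The annotated starts were therefore searched for a C followed by at least 5 letters C or T that begins within 10 bases of the start, on the strand of the gene. Of the 38 members with a RefSeq promoter entry, 9 held such a run in at least 1 entry (23.7%). So did 24.2% of 8080 genes with an entry that passed the filter and 21.9% of 27025 genes with an entry in all. Of 64 cytosolic ribosomal protein genes, 54.7% did. The members' share was near that of all genes. Members without an entry were not searched, and Eif3e, Eif3h, Eif3i and Eif4g2 are among them. Whether mouse Eif3e and Eif3h carry the run is thus not shown here. The windows below, credited to RefSeq (GRCm38.p6), run from 12 bases before the annotated start through 18 bases from it. They were chosen to show members with the run, the first match in capitals, beside stable and unstable members without it. Eif3l holds another matching run after the capitals, left in lower-case letters. Eif3f lies at chr7:108934403-108934432 (+ strand), Eif2s3x at chrX:94212634-94212663 (- strand), Eif3l at chr15:79075211-79075240 (+ strand), Eif1 at chr11:100319937-100319966 (+ strand), Eif3a at chr19:60790676-60790705 (- strand) and Eif4a1 at chr11:69672406-69672435 (- strand).
Eif3f: gttctaggCTCTCTCTCTTTCTCggcaaga
Eif2s3x: ccgagcattttCCTTTTCTCTCCgagcaag
Eif3l: cggagttCTTCTTCCgctctctcccacggg
Eif1: ctggcgtcacaggggcggctatataagtga
Eif3a: ggctcgggcggcggcgctgccgccgcgagg
Eif4a1: aagtaacgtcacgtcgagttgcagagcgcc

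Eif3f carried a run of 15 letters from 4 bases before its annotated start. Eif2b5 had 14 letters counted from 10 bases before it, where the search began, and Eif2s3x 12 letters from 1 base before it. Eif2b2, Eif3l, Eif4b, Eif4e, Eif4enif1 and Eif4g1 held the others. Median half-lives with and without the run were close. Members with it had a median of 1.46 h in KO and 1.64 h in WT, and members without it 1.55 h in KO and 1.53 h in WT. A match in an annotated window is a description, and the true starts of these mRNAs in these cells were not measured.

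Among the factors that open the small subunit for scanning, Eif1 was the most abundant member of all, with 574, 647 and 755 RPKM in KO, against 503, 572 and 723 in WT. Its half-life was 2.39 h in KO and 2.71 h in WT. Its relative Eif1b, whose coding sequence is 81.1% identical, had 59.1, 54.8 and 47.7 RPKM in KO, against 50.4, 46.3 and 36.6 in WT. The genes of eIF1A differed more. Eif1a had 29.1, 6.95 and 5.61 RPKM in KO, against 30.5, 7.96 and 5.79 in WT, with a half-life of 0.982 h in KO and 1.04 h in WT. The X-linked Eif1ax, 85.6% identical in coding sequence, had 64.9, 43.3 and 30.7 RPKM in KO, against 72.0, 58.8 and 38.1 in WT, and half-lives of 1.5 h in KO and 1.76 h in WT. Eif1ax thus stood 2.23-fold above Eif1a at 0 h and 5.47-fold above it at 6 h in KO, and 2.36-fold and 6.59-fold above it in WT. The median of the group of 5 was 1.55 h in KO and 1.76 h in WT.

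The 3 subunits of eIF2 decayed unevenly. Eif2s1, the alpha subunit that the stress kinases phosphorylate, had 22.2, 8.68 and 6.71 RPKM in KO, against 24.8, 9.32 and 6.00 in WT, and a half-life of 1.18 h in both. Eif2s2, the beta subunit, had half-lives of 1.55 h in KO and 1.52 h in WT. Eif2s3x, the X-linked gene of the gamma subunit, had 61.5, 43.9 and 37.0 RPKM in KO, against 40.6, 28.9 and 25.3 in WT, so that each KO library was above its WT counterpart. Its half-lives were 1.61 h in KO and 1.72 h in WT. Eif2d and Eif2a, factors for initiator tRNA outside the eIF2 route, had half-lives of 1.63 and 1.27 h in KO, against 1.86 and 1.28 h in WT.

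The subunits of eIF2B, the exchange factor of eIF2, were among the lowest and shortest-lived, with a median half-life of 1.34 h in KO and 1.18 h in WT over 5 genes. At 0 h their levels were between 4.14 RPKM (Eif2b3) and 23.3 RPKM (Eif2b2) in KO, and between 4.83 and 22.1 in WT for the same genes. Eif2b3 had 4.14, 1.43 and 1.38 RPKM in KO, against 4.83, 1.82 and 1.04 in WT. Eif2b2, the beta subunit, had 23.3, 13.9 and 10.1 RPKM in KO, against 22.1, 8.23 and 4.98 in WT. The 0 h libraries were close and the later ones apart, with a half-life of 1.42 h in KO and 1.17 h in WT.

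Around the cap, the eIF4G scaffold genes had a longer median half-life than the cap-binding and the helicase genes. Eif4e had 23.6, 9.31 and 5.79 RPKM in KO, against 26.3, 11.4 and 5.42 in WT, and half-lives of 1.15 h in KO and 1.2 h in WT. Eif4g1 had 52.0, 30.3 and 28.3 RPKM in KO, against 54.6, 35.9 and 31.7 in WT, and half-lives of 1.46 h in KO and 1.64 h in WT. Eif4g2, a scaffold without the eIF4E site, was the most stable of the 3, with 90.5, 84.7 and 82.3 RPKM in KO, against 107, 109 and 103 in WT, and half-lives of 1.97 h in KO and 2.26 h in WT. Every KO library of Eif4g2 was below every WT one. The medians were 1.61 h in KO and 1.89 h in WT for the eIF4G genes, and 1.32 h in KO and 1.42 h in WT for the eIF4E genes, in which Eif4e2, a cap-binding repressor, was the longest-lived (1.57 h in KO, 1.69 h in WT).

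The helicase genes changed places during the course. Eif4a1 had 253, 104 and 65.5 RPKM in KO, against 263, 113 and 68.3 in WT. Eif4a2, 77.6% identical in coding sequence, had 232, 146 and 148 RPKM in KO, against 238, 153 and 177 in WT. The ratio of Eif4a2 to Eif4a1 was 0.917, 1.40 and 2.26 at 0, 3 and 6 h in KO, and 0.905, 1.36 and 2.59 in WT, so that Eif4a1 led at 0 h and Eif4a2 afterwards in both cultures. Annotated exons of Eif4a2 overlap Rfc4 on the other strand (194 bases) and small nucleolar RNAs, reads of which may be included. Eif4a3, the helicase of the exon junction complex, had 62.3, 15.9 and 8.43 RPKM in KO, against 57.0, 14.4 and 8.48 in WT. Its half-life, 0.954 h in KO and 0.999 h in WT, was the shortest of the family outside Eif3j2. Eif4b and Eif4h, which assist the helicase, had half-lives of 1.63 and 1.39 h in KO, against 1.71 and 1.38 h in WT, and the 5 genes a median of 1.39 h in KO and 1.38 h in WT.

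The eIF4E-binding proteins also exchanged ranks. Eif4ebp1 had 39.4, 34.5 and 25 RPKM in KO, against 31.3, 31.7 and 27.4 in WT, and half-lives of 1.76 h in KO and 2.19 h in WT. Eif4ebp2 had 43.7, 18.8 and 13 RPKM in KO, against 42.0, 17.8 and 11.4 in WT, and half-lives of 1.21 h in KO and 1.24 h in WT. The ratio of Eif4ebp1 to Eif4ebp2 was 0.902, 1.83 and 1.91 in KO at 0, 3 and 6 h, and 0.745, 1.78 and 2.41 in WT. Eif4ebp3 and Eif4enif1, which carries eIF4E to the nucleus and to P-bodies, had half-lives of 1.27 and 1.18 h in KO, against 1.27 and 1.23 h in WT, and the median of the group of 4 was 1.239 h in KO and 1.254 h in WT.

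The late factors fell into 2 sets. Eif5a, the hypusinated factor that also serves elongation, had 322, 325 and 272 RPKM in KO, against 338, 379 and 289 in WT, and half-lives of 2.003 h in KO and 2.297 h in WT. Its relative Eif5a2 was stable at a low level, with 3.25, 2.68 and 3.20 RPKM in KO, against 3.86, 2.77 and 3.34 in WT. Eif5, the GTPase activator of eIF2, had 52.9, 24.8 and 24.2 RPKM in KO, against 59.4, 27.3 and 22.9 in WT. Eif6, which keeps the ribosomal subunits apart, had 90.9, 39.3 and 33.2 RPKM in KO, against 84.8, 39.2 and 23.7 in WT. Half-lives of Eif5 were 1.32 h in KO and 1.34 h in WT, and those of Eif6 1.245 h in KO and 1.28 h in WT. Eif5b, the GTPase of subunit joining, had 15.8, 9.28 and 7.22 RPKM in KO, against 16.5, 7.48 and 4.66 in WT. Its annotated exons share 1643 bases with Rev1 on the other strand, and no source used here says whether reads were counted by strand. The median of these 5 genes was 1.43 h in KO and 1.34 h in WT.

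The comparison of KO with WT asked whether initiation factor mRNAs differed in level or decay between cultures with and without intact Mettl3, which also differed in sex-linked transcripts. No member changed enough to be counted by level. A gene was counted when KO and WT differed at least 1.5-fold (0.58 on the log2 scale) in the same direction at 0, 3 and 6 h, each relative to the median gene, whose log2 ratio of KO to WT spike-in scaled amounts was 0.36, -0.22 and 1.11 at these times. By this rule 0 of 49 members were higher and 0 lower in KO, where 1.7% of all genes were higher and 0.845% lower. At 0 h alone 0 were higher (4.46% of all genes) and 1 lower, Eif3j1 (2.91% of all genes). For decay, half-lives had to differ 1.5-fold with rates to 3 h and to 6 h that differed in the same direction. This counted 0 members as faster (0.893% of all genes) and 1, Eif3j2, as slower in KO (1.04% of all genes). The members' counts were near or under these backgrounds and do not set the members apart.

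The 47 genes other than Eif3j1 and Eif3j2 lay within -0.48 to 0.91 on the log2 scale in every pair of libraries, relative to the median gene. Averaged over the 3 times they lay within -0.34 to 0.57, and 40 of 47 (85.1%) were within 0.25 of the median gene, as were 67.9% of all genes. The ratio of KO to WT half-lives ran over 0.859 to 1.28 after the shift of the median gene was taken out. Before that, 38 of 47 half-lives were longer in WT, as were 73.7% of those of all genes. That direction rests on the spike-in factors, and without the 3 h libraries the members' median half-life was 2.38 h in KO and 1.67 h in WT.

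**Figure D3:**
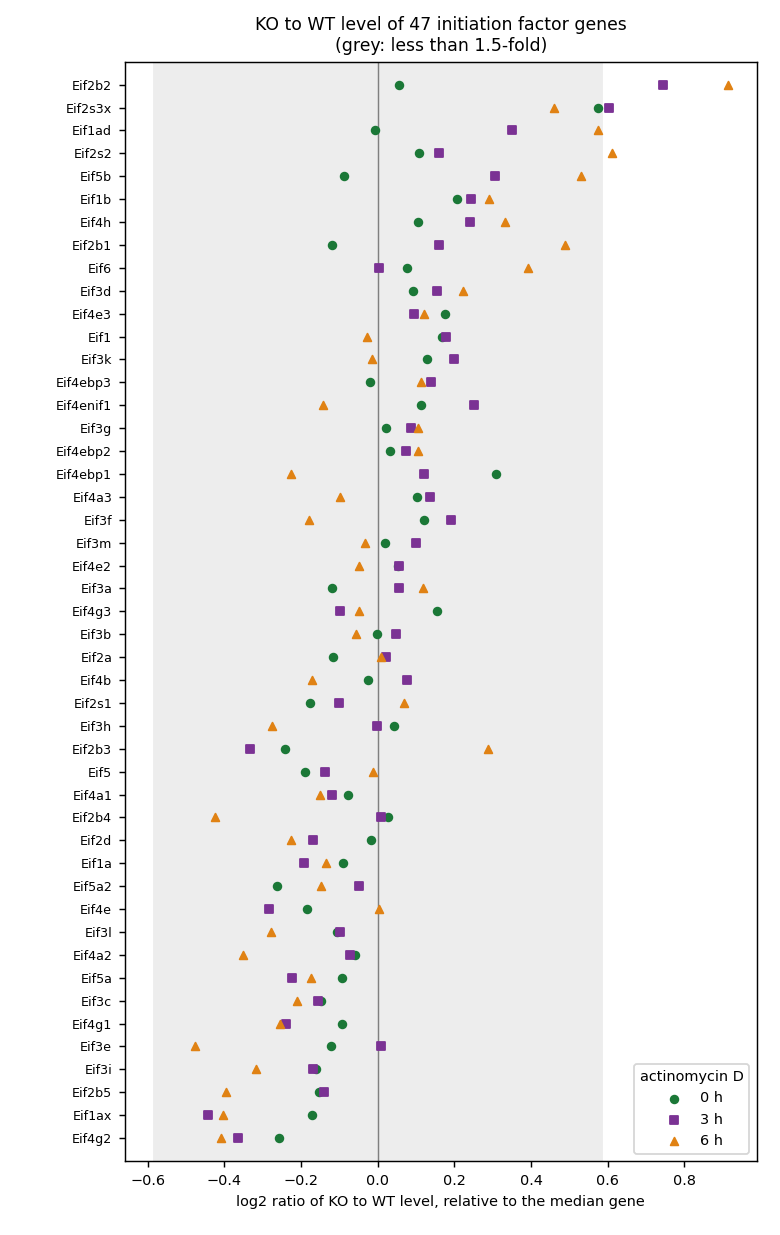
Log2 ratio of KO to WT level, relative to the median gene, for 47 initiation factor genes at 0 h (circles), 3 h (squares) and 6 h (triangles), sorted by the mean, each point 1 pair of libraries; grey marks ratios under 1.5-fold. All points lie within -0.48 to 0.91, Beyond the grey lie Eif2b2 at 3 and 6 h, Eif2s3x at 3 h and Eif2s2 at 6 h.

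Among the 47, Eif2b2 and Eif2s3x were the highest in KO. The log2 ratio of KO to WT relative to the median gene was 0.06, 0.75 and 0.91 at 0, 3 and 6 h for Eif2b2, so that the cultures began alike and parted during decay. Its k to 3 h differed by -0.231 per h, KO minus WT (counting standard error 0.0435), with the median gene's shift taken out. Other members also differed by more than their own counting errors, such as Eif5b (-0.133, error 0.0224) and Eif1ax (0.0885, error 0.0120). These errors cover counting alone, so they do not set Eif2b2 apart. Among the 47, Eif5b and Eif1ad came after Eif2b2 by the mean difference in k toward slower decay in KO. Their log2 ratios were -0.09, 0.31 and 0.53 for Eif5b and -0.01, 0.35 and 0.57 for Eif1ad. Eif1ad had 17.0, 11.1 and 9.99 RPKM in KO, against 16.8, 8.68 and 6.27 in WT, and shares 428 exon bases with Banf1 on the other strand. By mean KO to WT level the lowest of the 47 were Eif4g2, with a log2 ratio of -0.26, -0.37 and -0.41, and Eif1ax, with -0.17, -0.44 and -0.40. The largest differences toward faster decay in KO were those of Eif4ebp1, with a log2 ratio of 0.31, 0.12 and -0.23, of Eif1ax and of Eif4g3. Eif4g3, another scaffold, had 17.5, 11.9 and 11.5 RPKM in KO, against 15.4, 12.7 and 11.2 in WT. Of these genes, none reached 1.5-fold at all 3 times, and culture-to-culture error is unknown.

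For Eif2s3x the log2 ratio was 0.57, 0.60 and 0.46, the smallest of the 3 folds being 1.37. Its Y-linked partner Eif2s3y, 86.3% identical in coding sequence and encoding the same subunit, had 0.0232, 0 and 0.0282 RPKM in KO at 0, 3 and 6 h, against 33.1, 22.8 and 22.4 in WT. The sum of both genes was 61.6, 43.9 and 37.1 RPKM in KO, against 73.7, 51.6 and 47.7 in WT, which relative to the median gene is a log2 ratio of -0.28, -0.23 and -0.45. The direction of the gamma subunit therefore turned when the Y-linked gene was added. Other sex-linked transcripts split the cultures too. Xist, the RNA of the inactive X, had 33.9, 35.8 and 39.6 RPKM in KO, against 0.0407, 0.0429 and 0.103 in WT, while Y-linked Ddx3y was at or under 0.0353 RPKM in KO, against 13.2 to 25.4 in WT. The X-linked Kdm5c, which like Eif2s3x is known to escape X inactivation in mouse, had a log2 ratio of 0.62, 0.90 and 0.79. Of 2 other such escape genes, Kdm6a had 0.59, 0.14 and 0.20, and Ddx3x had -0.13, -0.10 and -0.04. Genotype and sex of the source mice cannot be told apart in these 6 libraries, for Eif2s3x or for any other member.

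**Figure D4:**
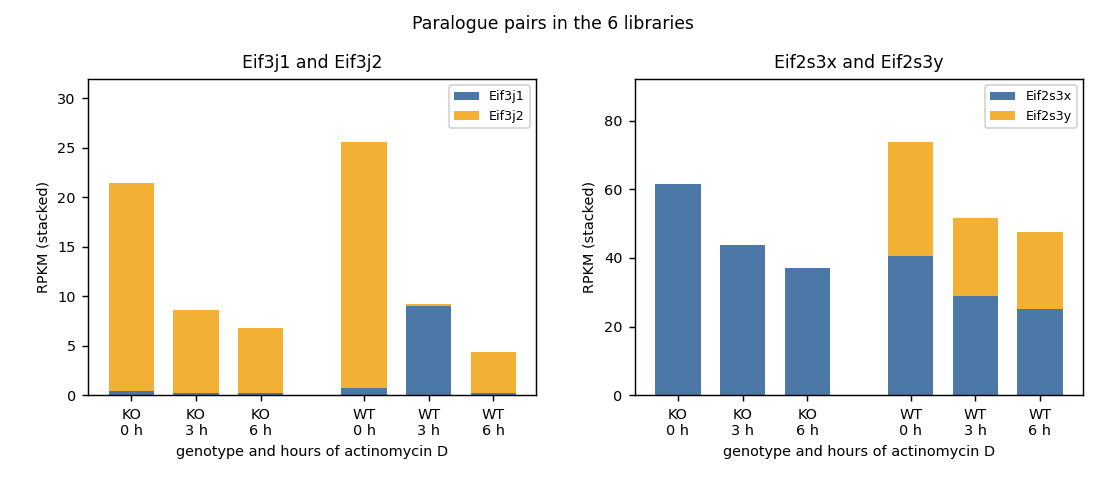
Stacked RPKM of Eif3j1 and Eif3j2 (left) and of Eif2s3x and Eif2s3y (right) in the 6 libraries, KO bars left of WT bars. In WT at 3 h Eif3j1 takes 98.1% of its pair, against 1.86% to 5.09% in the other 5 libraries, and Eif2s3y is seen in the WT libraries.

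Eif3j1 and Eif3j2 are copies of the gene of the loosely bound j subunit. Eif3j2 was the only member counted by a rule, and Eif3j1 the only one past 1.5-fold at 0 h. The differences of these copies cannot be read as such. Their coding sequences are 99.2% identical and share an unbroken run of 781 bases, so reads can be split between them. Annotated exons of Eif3j1 also share 1107 bases with Spg11 on the other strand, reads of which may be included. Eif3j1 had 0.398, 0.243 and 0.268 RPKM in KO, against 0.749, 9.0 and 0.22 in WT. Eif3j2 had 21.0, 8.38 and 6.55 RPKM in KO, against 24.8, 0.177 and 4.11 in WT. In 5 libraries nearly all of the signal was thus given to Eif3j2, and in WT at 3 h to Eif3j1. Added up, the copies had 21.4, 8.63 and 6.82 RPKM in KO, against 25.5, 9.18 and 4.33 in WT. The half-life of the sum was 1.2 h in KO and 1.11 h in WT, where Eif3j2 alone had 1.19 h in KO and 0.575 h in WT, and the log2 ratio of the sum was -0.28, -0.09 and 0.55. The sum was counted by neither rule, and without the 3 h libraries neither copy was counted for decay.

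Other parts of the translation machinery were set beside the initiation factors. The cytosolic ribosomal protein genes were longer-lived, with a median half-life of 2.69 h in KO and 3.23 h in WT over 82 genes. The elongation factor list came next at 2.20 h in KO and 2.34 h in WT (7 genes). It ran from Eef1e1, which is listed by its symbol (1.35 h in KO, 1.22 h in WT), to Eef1b2 (3.15 h in KO, 3.90 h in WT). The other lists lay near or under the initiation factors. Poly(A) tail and cap partners had a median of 1.55 h in KO and 1.58 h in WT (10 genes), from Pdcd4 (0.959 h in KO, 1.10 h in WT), an inhibitor of eIF4A, and Ncbp1 (1.04 h in KO, 1.05 h in WT), of the nuclear cap-binding complex, to Pabpc4 (2.40 h in KO, 2.63 h in WT), a poly(A)-binding protein. Aminoacyl-tRNA synthetases had 1.39 h in KO and 1.43 h in WT (20 genes), and termination and recycling factors 1.37 h in KO and 1.34 h in WT (10 genes). The list of mTOR and MNK kinases, which also holds partners such as Rheb, Tsc1 and Tsc2, had 1.41 h in KO and 1.44 h in WT (11 genes). The shortest median was that of the list of eIF2 kinases and phosphatase subunits, 1.10 h in KO and 1.11 h in WT (7 genes). Its shortest half-life in KO was that of Ppp1r15a, the inducible subunit that restores eIF2 (0.785 h in KO, 0.873 h in WT). In WT it was that of Eif2ak3 (0.812 h in KO, 0.851 h in WT). The longest in both was that of Impact (1.53 h in KO, 1.80 h in WT). Impact is neither a kinase nor a phosphatase subunit. Between KO and WT, 0 genes of the elongation, termination, poly(A) and cap, eIF2 kinase, mTOR and synthetase lists were counted by level or decay in either direction. Of the 82 ribosomal protein genes, Rpl39l was counted as higher and Rpl26 as slower in KO.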

How the data were processed

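Per the labels and the study's methods, poly(A) RNA with ERCC transcripts was sequenced, and the submitters' processing notes name bcl2fastq, TopHat2 2.0.14, Cuffnorm and mm10. For the annotation and the strandedness of counting, nothing is given in the sources used here. The deposited values were RPKM plus 1 multiplied by a factor for each column, as made by the authors; RPKM were recovered by dividing by the column minimum and subtracting 1. Columns of the authors' own half-lives were not used. Of 23863 genes, 27 named by a date were left out.

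Each library was scaled by the median ratio of 75 of 92 ERCC transcripts above 0 in all 6 libraries (factors 1.27, 0.307 and 0.395 at 0, 3 and 6 h in KO, and 1, 0.358 and 0.194 in WT). The log2 scale used a pseudocount of 0.1 RPKM, which understates changes of low genes, and rates under 0.02 per h were set to 0.02. Both count rules, their thresholds and the median gene are given in the report. With 1 library per genotype and time no test was run. Depth was read from single-read steps and counting errors cover counting only. The steps were tested on simulated data.

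Coding identity came from the GRCm38.p6 annotation, and start windows from RefSeq, without the members that have no entry. Values in all libraries are printed for the 3 members at each end of level, WT half-life, KO to WT level and rate difference, those counted and 12 chosen by role. The whole-gene RPKM of Mettl3 (6.99, 4.83 and 4.06 in KO, 7.79, 2.68 and 2.59 in WT) does not check the labels, since the KO allele lacks early exons alone. Members, lists and rules were chosen with earlier results of these data known. Python 3.11.15, pandas 2.3.3 and Biopython 1.88 were used.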

Additional observations from a re-analysis of the deposited data

Results flagged for a closer look

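Eif3j1 moved in opposite directions in the cultures between 0 and 3 h. Its spike-in scaled amount changed by -2.58 on the log2 scale in KO and by 1.94 in WT. The difference was not tested, since each culture gave 1 library a time. Added to its near-identical copy Eif3j2 it had 8.63 RPKM in KO and 9.18 RPKM in WT at 3 h, of which Eif3j1 took 2.82% in KO and 98.1% in WT.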

How the results depend on the processing

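The length of the half-lives depended on scaling and times, and the order of the members did not. The median half-life of the members was 2.38 h in KO and 1.67 h in WT without the 3 h libraries, and the same from a least-squares slope, which over these times rests on 0 and 6 h alone. It was 1.10 h in KO and 1.42 h in WT without the 6 h libraries, 5.34 h in KO and 4.76 h in WT with no spike-in scaling, and 1.56 h in KO and 1.62 h in WT with the factors the authors applied. KO was thus longer than WT when 3 h was left out or the spike-ins were not used, and shorter in the other settings given here. Across all settings the order of the members correlated with that reported at a rho of 0.96 or more. At the lower of the other fold thresholds tried, 1 member was higher in KO (Eif2s3x) and 2 decayed more slowly (Eif2b2 and Eif3j2), where 4.99% of all genes were higher and 2.97% slower. Without the 3 h libraries 0 were slower. Without the 6 h libraries 1 was lower and 1 faster, in both cases Eif3j1, where 1.6% of all genes were lower and 1.59% faster. With WT rates from RPKM with no spike-in scaling, 3 were faster (Eif1ax, Eif4ebp1 and Eif4g3) and 5 slower (Eif1ad, Eif2b2, Eif3j2, Eif5a2 and Eif5b), where 7.17% of all genes were faster and 6.86% slower. With Eif3j1 and Eif3j2 summed to 1 gene, an alternative chosen after seeing the data, 0 were slower. Other pseudocounts, filters and the fold of 2 kept every count. Of 710 values of single members under alternatives, 257 moved by more than their counting interval. Small mean log2 ratios changed sign in some of them, as that of Eif3f did (0.04, and -0.03 without the 3 h libraries), and that of Eif3j1 did when the copies were summed (-1.80 alone and 0.06 summed). No paired analysis was possible because each genotype and time had 1 library. Differences between cultures are not measured here, which limits every KO to WT comparison more than depth does.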
